A study of Mus musculus with 12 samples.

Results

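Mitochondrial fatty acid oxidation genes were followed through the exit from naive pluripotency, in cells with and without repression of pyruvate cycling. They were the carnitine shuttle genes *Cpt1a*, *Cpt1c*, *Cpt2* and *Slc25a20*, the acyl-CoA dehydrogenase genes *Acads*, *Acadm*, *Acadl* and *Acadvl*, and the mitochondrial trifunctional protein genes *Hadha* and *Hadhb*. These 10 genes were picked by symbol, as genes of the carnitine shuttle and of mitochondrial oxidation, from the 57180 genes of the deposited transcript-to-gene table, and all 10 passed the filter of at least 10 counts in total that left 25446 genes for testing.

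Long-chain fatty acids are joined to CoA in the cytosol and cannot cross the inner mitochondrial membrane in that form. CPT1 at the outer membrane swaps CoA for carnitine, the carrier SLC25A20 moves the acylcarnitine inward and CPT2 restores the acyl-CoA, which acyl-CoA dehydrogenases of different chain-length preference and the trifunctional protein then shorten step by step to acetyl-CoA. CPT1 is inhibited by malonyl-CoA, the building block of fatty acid synthesis, and naive mouse embryonic stem cells (ESCs) are known to use this pathway more than primed pluripotent cells do.

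The 12 libraries came from E14 mouse ESCs with a doxycycline-inducible dCas9-based repressor, which guide RNAs bring to a start site. Scramble guides were used for the Neg cells. In 3xKD cells the guides were aimed at *Pcx*, *Me1* and *Me2*, which encode pyruvate carboxylase and the malic enzymes of pyruvate cycling. Both were sequenced as ESCs in N2B27 with 2iLIF and as epiblast-like cells (EpiLCs) on day 2 of culture with Activin A, Fgf2 and XAV939, a step towards formative pluripotency, and the 4 groups have 3 libraries apiece. The study asked how pyruvate cycling bears on metabolism and on the passage between these states. All 4 groups share the E14 background, the repressor construct, its antibiotic selection and, by the study's account, culture under low oxygen. The repressor line was 1 picked clone and each guide set is 1 line, so the repression of *Pcx*, *Me1* and *Me2* and any other difference between the 3xKD and Neg lines cannot be told apart. Doxycycline is named for these cells by the study and not by the labels of the libraries. Libraries were assigned to states by their titles, because another label calls every Neg library ESC and every 3xKD library EpiLC. The study describes its experiments in general as run in biological replicates, and the labels do not say what separated the 3 libraries of a group, so p-values measure the spread between these libraries.

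Library totals ran from 11221023 to 19652197 estimated counts. The repressed genes were lower in every 3xKD library than in every Neg library of the same state. In ESCs the log2 fold change was -1.14 for *Pcx*, -0.89 for *Me1* and -0.95 for *Me2*, and in EpiLCs it was -1.05, -1.05 and -0.98. The state labels given by the titles fitted the markers, since the summed level of 10 naive markers lay between 4030.5 and 5413.5 CPM (counts scaled to one common library total) in ESCs and between 406.4 and 530.8 CPM in EpiLCs, and that of 10 formative markers between 499.7 and 576.4 CPM in ESCs and between 2735.7 and 5131.5 CPM in EpiLCs. The lines differed beyond the repressed genes. Between 3xKD and Neg ESCs the median log2 fold change was 0.30 over 454 genes of chromosome 16 and -2.59 over 13 genes of chromosome Y, and the same medians were found in EpiLCs. None of the 10 genes lies on either chromosome, and the medians of their own chromosomes in ESCs lay between -0.04 and 0.05.

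Sequence at 3 promoters was read from GRCm39. *Hadha* and *Hadhb* start from one shared region, *Cpt1a* differed most between the states, and *Acads* was the one member called in 3xKD in both states. *Hadha* is transcribed from the minus strand and *Hadhb* from the plus strand of chromosome 5, and 64 bases separate their canonical start sites in GENCODE vM39. The first line gives the 48 of these bases that no annotated exon covers, chr5:30360188-30360235, on the plus strand. The other lines give the 120 bases before the canonical start of *Cpt1a*, chr19:3373151-3373270 on the plus strand, and of *Acads*, chr5:115257406-115257525 on the minus strand. Capitals mark the GC box GGGCGG, or CCGCCC where it lies on the other strand.
Hadha to Hadhb: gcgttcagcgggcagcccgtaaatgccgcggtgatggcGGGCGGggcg
Cpt1a: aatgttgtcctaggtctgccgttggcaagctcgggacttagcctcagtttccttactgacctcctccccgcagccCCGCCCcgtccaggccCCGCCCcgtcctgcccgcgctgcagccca
Acads: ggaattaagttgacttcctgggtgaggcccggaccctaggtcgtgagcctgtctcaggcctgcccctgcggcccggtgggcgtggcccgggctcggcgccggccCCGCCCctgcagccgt

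In the window from 250 bases before to 50 bases after the canonical start, the GC box occurred on either strand in 7 of the 10 genes, and in 42.6% of 21593 protein-coding promoters. The genes without it were *Acadm*, *Acadl* and *Acadvl*. The NF-Y box CCAAT occurred in 3, *Cpt1a*, *Cpt1c* and *Acadl*, against 39.9% of promoters. The response element TCAAGGTCA of the estrogen-related receptors, which occurs in 0.477% of promoters, the E-box CACGTG (7.83%) and the cyclic AMP response element TGACGTCA (2.45%) were in none of the 10 windows. Both strands were searched, the windows of *Hadha* and *Hadhb* overlap, and the lack of an exact match says only that these letters are not in these windows. The GC content of the windows ran from 41.7% for *Acadl* to 64.3% for *Hadha*.

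*Cpt1a* was the member that separated the states most, and with *Acads* and *Acadl* it was among the 3 called higher in 3xKD EpiLCs. Levels are CPM normalized by edgeR's TMM method, which compare 1 gene between libraries. A gene is said to have risen or fallen, or to be called, when edgeR's quasi-likelihood test gave a Benjamini-Hochberg adjusted p under 0.01 over all 25446 genes and the log2 fold change exceeded 0.58 in size. Genes that passed the p limit alone are named as such.

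**Figure D1:**
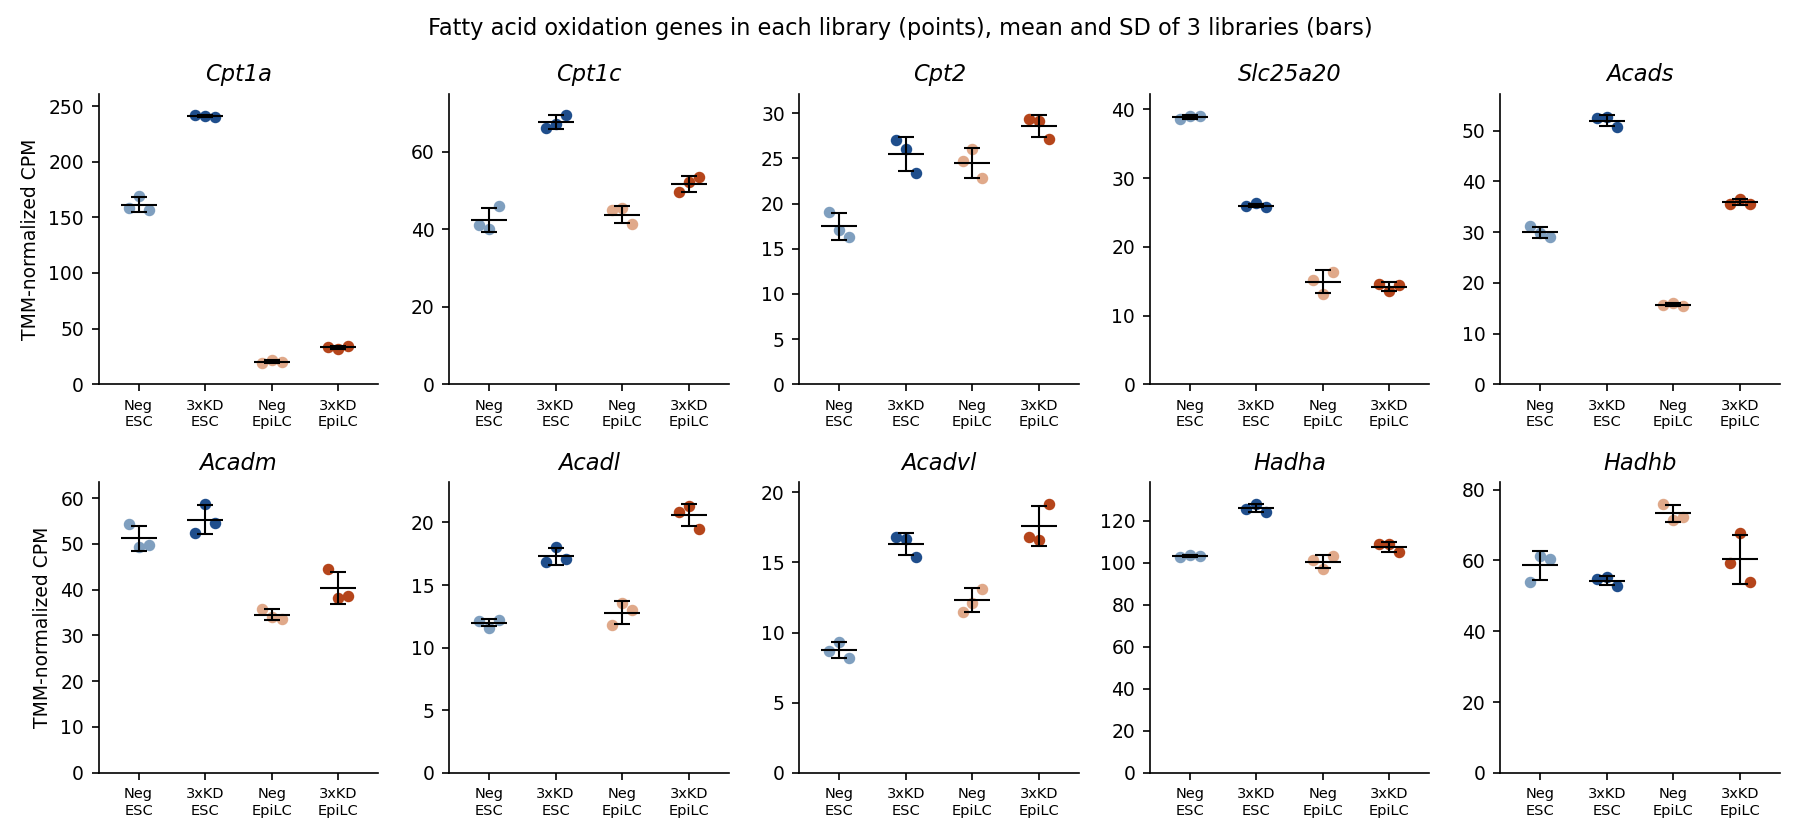
Level of each fatty acid oxidation gene (vertical axes, TMM-normalized CPM from 0) in the 3 libraries of each group (points), with the mean and SD (bars). *Cpt1a* falls from 156.5 to 241.9 CPM in ESCs to 19.2 to 34.6 CPM in EpiLCs, while *Acads*, *Acadl* and *Acadvl* sit higher in 3xKD than in Neg libraries of both states.

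*Cpt1a* (ENSMUSG00000024900, chr19:3371853-3437996, plus strand) encodes the liver-type CPT1 that commits long-chain fatty acids to oxidation. It was at 158.7, 169.4 and 156.5 CPM in the Neg ESC libraries and at 241.9, 241.0 and 240.4 CPM in the 3xKD ESC libraries. In EpiLCs it was at 19.2, 21.8 and 19.7 CPM in Neg and at 33.1, 31.5 and 34.6 CPM in 3xKD. The 4 groups did not overlap, and the lowest ESC library stood far above the highest EpiLC library. *Cpt1a* fell between ESCs and EpiLCs by 3.00 on the log2 scale in Neg (SE 0.051, adjusted p = 3.7e-17, n = 3 and 3, edgeR), a 7.98-fold lower level, and by 2.86 in 3xKD (SE 0.048, adjusted p = 4.8e-17, edgeR). In 3xKD against Neg EpiLCs it rose by 0.71 (SE 0.055, adjusted p = 2.4e-08, edgeR), and in ESCs the difference was 0.58 (SE 0.042, adjusted p = 1.1e-08, edgeR), just short of the fold limit before rounding. The ESC value reached the limit without Neg ESC replicate 2, 3xKD ESC replicate 1, Neg EpiLC replicate 1 or 2, or 3xKD EpiLC replicate 3 (0.61 in each), and over all 23 alternatives it lay between 0.53 and 0.62.

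*Cpt1c* (ENSMUSG00000007783, chr7:44607765-44624306, minus strand) encodes a CPT1 form known from neurons, with little catalytic activity of its own. It was at 41.0, 40.1 and 46.1 CPM in Neg ESCs, at 66.2, 67.3 and 69.5 CPM in 3xKD ESCs, at 44.9, 45.4 and 41.3 CPM in Neg EpiLCs and at 49.6, 52.1 and 53.6 CPM in 3xKD EpiLCs. The 3xKD libraries lay above the Neg libraries in both states, most clearly in ESCs, while the Neg libraries of both states overlapped. It rose in 3xKD ESCs by 0.67 (SE 0.057, adjusted p = 6.6e-08, edgeR) and passed the p limit alone in EpiLCs at 0.24 (SE 0.057, adjusted p = 0.0028, edgeR). The EpiLC value lost the p limit without Neg EpiLC replicate 3 or 3xKD EpiLC replicates 2 or 3, and with transcript-length offsets. Between Neg EpiLCs and Neg ESCs the log2 fold change was 0.04, with a 95% interval from -0.07 to 0.16.

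Compared per length as TPM, the length-scaled abundance, *Cpt1a* held most of the summed TPM of *Cpt1a*, *Cpt1b* and *Cpt1c* in ESCs and a minority in EpiLCs. Its share was 74.0%, 75.3% and 70.4% in Neg ESCs and 66.5%, 66.5% and 70.9% in 3xKD ESCs. The EpiLC shares were 20.2%, 20.6% and 25.0% in Neg and 22.7%, 32.0% and 32.0% in 3xKD. ESCs and EpiLCs did not overlap, whereas the lines overlapped within both states, so the leading CPT1 gene by TPM was *Cpt1a* in ESCs and *Cpt1c* in EpiLCs.

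**Figure D2:**
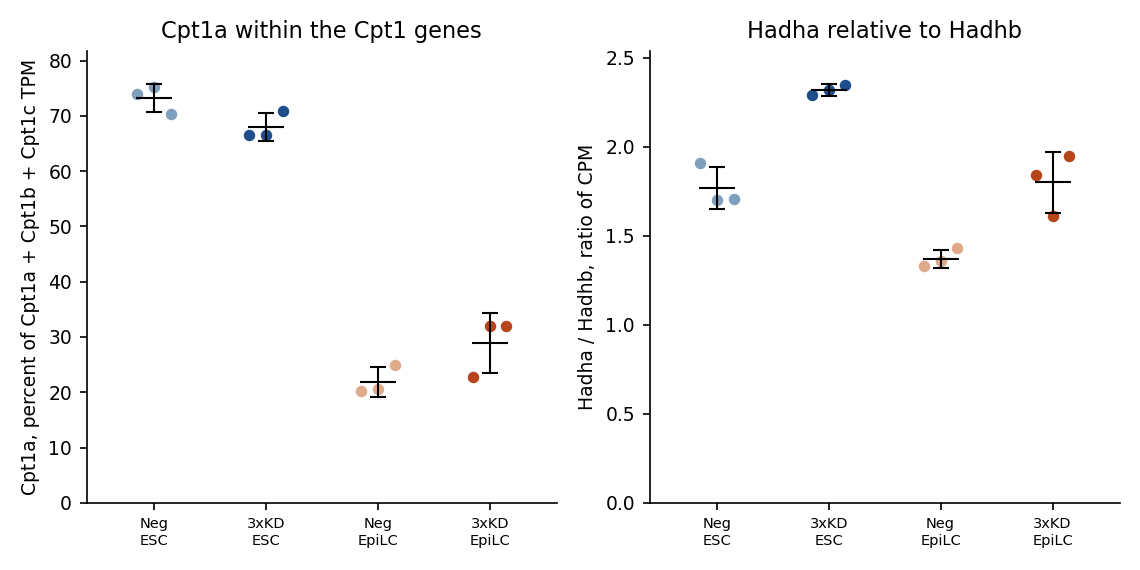
Left, *Cpt1a* as a percent of the summed TPM of *Cpt1a*, *Cpt1b* and *Cpt1c*, and right, the ratio of *Hadha* to *Hadhb* CPM, in the 3 libraries of each group (points) with the mean and SD (bars). The *Cpt1a* share is above 66% in every ESC library and at or under 32.0% in every EpiLC library, and the *Hadha* to *Hadhb* ratio is higher in 3xKD than in Neg libraries of both states.

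*Cpt2* and *Slc25a20* complete the shuttle, and they differed in direction. *Cpt2* (ENSMUSG00000028607, chr4:107751473-107780812, minus strand) was at 19.1, 17.1 and 16.3 CPM in Neg ESCs and at 27.1, 26.0 and 23.4 CPM in 3xKD ESCs. The EpiLC libraries were at 24.7, 26.0 and 22.8 CPM in Neg and at 29.4, 29.2 and 27.2 CPM in 3xKD. Neg ESCs held the lowest libraries of all, and the 3xKD libraries were higher in both states. *Cpt2* passed the p limit alone in ESCs at 0.55 (SE 0.079, adjusted p = 2.3e-05, edgeR) and not in EpiLCs at 0.22 (SE 0.075, adjusted p = 0.026, edgeR). Its ESC value lay between 0.47 and 0.61 over the alternatives and passed both limits without Neg ESC replicate 1, 3xKD ESC replicate 3, Neg EpiLC replicate 1 or 2, or 3xKD EpiLC replicate 3. It was the shuttle gene that was higher in EpiLCs than in ESCs in Neg, at 0.49 (SE 0.079, adjusted p = 6.4e-05, edgeR), which passed the p limit alone.

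*Slc25a20* (ENSMUSG00000032602, chr9:108539250-108562760, plus strand) encodes the carnitine-acylcarnitine translocase. Its levels in ESCs were tight, at 38.6, 39.0 and 39.0 CPM in Neg and at 25.9, 26.3 and 25.8 CPM in 3xKD. Levels in EpiLCs were at 15.2, 13.1 and 16.4 CPM in Neg and at 14.6, 13.5 and 14.5 CPM in 3xKD. It was the one member lower in every 3xKD ESC library than in every Neg ESC library, while in EpiLCs the lines overlapped. The ESC difference was -0.58 (SE 0.068, adjusted p = 2.7e-06, edgeR), a 1.49-fold lower level that fell just short of the fold limit. *Slc25a20* was called there under 11 of 23 alternatives, among them DESeq2 and leaving out Neg ESC replicate 1 or 3xKD ESC replicate 2. The 11 include the alternative that sets no fold limit. In EpiLCs the value was -0.07 (95% interval from -0.22 to 0.08, adjusted p = 0.53, edgeR). *Slc25a20* fell between ESCs and EpiLCs in both lines, by 1.38 in Neg and by 0.87 in 3xKD. Transcripts with a retained intron held 7.19% to 12.3% of its counts in ESCs and 18.6% to 33.7% in EpiLCs, with no overlap between the states.

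Of the acyl-CoA dehydrogenases, *Acads*, *Acadl* and *Acadvl* were higher in 3xKD in both states, past the p limit in each, and *Acadm* was not. With transcript-length offsets, *Acadl* lost that limit in both states and *Acadvl* in EpiLCs. *Acads* (ENSMUSG00000029545, chr5:115248357-115257405, minus strand), the enzyme of short chains, was the one member called in both states. It was at 31.2, 29.8 and 29.0 CPM in Neg ESCs, at 52.5, 52.8 and 50.8 CPM in 3xKD ESCs, at 15.6, 16.1 and 15.5 CPM in Neg EpiLCs and at 35.6, 36.6 and 35.6 CPM in 3xKD EpiLCs. The 4 groups were far apart, and 3xKD EpiLCs lay above Neg ESCs. It rose by 0.80 in 3xKD ESCs (SE 0.048, adjusted p = 1.3e-09, edgeR) and by 1.19 in 3xKD EpiLCs (SE 0.052, adjusted p = 4.1e-11, edgeR), 1.74-fold and 2.29-fold. Between ESCs and EpiLCs it fell by 0.93 in Neg (SE 0.053, adjusted p = 2.4e-10, edgeR), and in 3xKD the value was -0.53, past the p limit alone.

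*Acadvl* (ENSMUSG00000018574, chr11:69900853-69906270, minus strand), the enzyme of very long chains at the inner membrane, held the lowest count of any member in 1 library, 98 in a Neg ESC library. It was at 8.69, 9.36 and 8.21 CPM in Neg ESCs, at 16.8, 16.7 and 15.4 CPM in 3xKD ESCs, at 11.5, 12.1 and 13.1 CPM in Neg EpiLCs and at 16.8, 16.6 and 19.2 CPM in 3xKD EpiLCs. The 3xKD libraries of both states overlapped with each other and lay above all Neg libraries. It rose in 3xKD ESCs by 0.90 (SE 0.091, adjusted p = 4.7e-07, edgeR), and in EpiLCs it passed the p limit alone at 0.52 (SE 0.087, adjusted p = 1.2e-04, edgeR).

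*Acadl* (ENSMUSG00000026003, chr1:66868267-66902633, minus strand), the long-chain enzyme, was at 12.1, 11.6 and 12.2 CPM in Neg ESCs and at 16.8, 18.0 and 17.1 CPM in 3xKD ESCs. In EpiLCs it was at 11.8, 13.6 and 13.0 CPM in Neg and at 20.8, 21.3 and 19.5 CPM in 3xKD. The Neg libraries of both states overlapped, and every 3xKD library was above them. *Acadl* rose in 3xKD EpiLCs by 0.68 (SE 0.074, adjusted p = 1.1e-06, edgeR) and passed the p limit alone in ESCs at 0.53 (SE 0.075, adjusted p = 2.2e-05, edgeR), a value that passed both limits without 3xKD ESC replicate 1. With transcript-length offsets the EpiLC value was 0.62 and its adjusted p 0.045 (edgeR), against a range from 1.1e-12 to 0.045 over all 23 alternatives.

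*Acadm* (ENSMUSG00000062908, chr3:153627989-153650317, minus strand), the medium-chain enzyme, was at 54.3, 49.4 and 49.7 CPM in Neg ESCs and at 52.4, 58.8 and 54.6 CPM in 3xKD ESCs. The EpiLC libraries were at 35.8, 34.1 and 33.6 CPM in Neg and at 44.4, 38.2 and 38.5 CPM in 3xKD. The lines overlapped in ESCs, and in EpiLCs 3xKD lay above Neg. The difference did not pass the p limit in ESCs (0.11, 95% interval from -0.01 to 0.24, adjusted p = 0.17, edgeR) or in EpiLCs (0.23, 95% interval from 0.10 to 0.35, adjusted p = 0.011, edgeR). Between ESCs and EpiLCs it was lower by p alone, at -0.56 in Neg and -0.45 in 3xKD. The Neg value passed both limits without Neg ESC replicate 2 or 3 (-0.59 in each), and lost the p limit with transcript-length offsets.

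*Hadha* and *Hadhb* encode the alpha and beta subunits of the trifunctional protein, which carries out the hydratase, dehydrogenase and thiolase steps for long chains. *Hadha* (ENSMUSG00000025745, chr5:30323302-30360187, minus strand) was at 102.9, 103.9 and 103.3 CPM in Neg ESCs and at 125.5, 128.3 and 124.4 CPM in 3xKD ESCs. Levels in EpiLCs were at 101.3, 97.2 and 103.4 CPM in Neg and at 109.2, 108.9 and 105.0 CPM in 3xKD. Neg libraries of both states overlapped, and 3xKD libraries lay above them in each state. It passed the p limit alone in ESCs at 0.29 (SE 0.034, adjusted p = 3.3e-06, edgeR) and not in EpiLCs at 0.10 (SE 0.034, adjusted p = 0.032, edgeR).

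*Hadhb* (ENSMUSG00000059447, chr5:30359204-30389997, plus strand) was at 54.0, 61.3 and 60.5 CPM in Neg ESCs and at 54.9, 55.2 and 52.9 CPM in 3xKD ESCs. In EpiLCs it was at 76.1, 71.4 and 72.2 CPM in Neg and at 59.4, 67.7 and 53.9 CPM in 3xKD. The lines overlapped in ESCs, and in EpiLCs 3xKD lay below Neg. Its difference was -0.11 in ESCs (95% interval from -0.25 to 0.02, adjusted p = 0.23, edgeR) and -0.28 in EpiLCs (SE 0.068, adjusted p = 0.0030, edgeR). The EpiLC value passed the p limit alone and lost it without Neg EpiLC replicate 1, 3xKD EpiLC replicate 1 or 3xKD EpiLC replicate 3. *Hadhb* lost it too with transcript-length offsets, with library size alone, and without retained-intron and nonsense-mediated decay transcripts. In Neg it was higher in EpiLCs than in ESCs by 0.32 (SE 0.068, adjusted p = 9.2e-04, edgeR), again by p alone.

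The pair therefore did not keep one ratio, although their start sites lie on either side of the bases printed above. The ratio of *Hadha* to *Hadhb* CPM was 1.91, 1.70 and 1.71 in Neg ESCs and 2.29, 2.32 and 2.35 in 3xKD ESCs. The EpiLC ratios were 1.33, 1.36 and 1.43 in Neg and 1.84, 1.61 and 1.95 in 3xKD. The ratio was higher in every 3xKD library than in every Neg library of the same state, and is given without a test. The annotated spans of both genes overlap at their starts on opposite strands. Reads there can be told apart by strand alone, and the strand setting of the quantification is not given in the sources used here. The authors' estimates placed 69.6% to 76.3% of the *Hadha* counts of each library on a transcript with no defined coding sequence and 19.7% to 25.9% on its canonical transcript, and the share of the leading *Hadhb* transcript ran from 4.43% to 88.5% between libraries.

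Read together for 3xKD against Neg ESCs, 7 of the 10 genes were higher and 1, *Slc25a20*, was lower past the p limit, where 15.6% of all genes tested were higher and 16.0% lower. Both limits called 3 higher, *Cpt1c*, *Acads* and *Acadvl*, against 8.50% of all genes, and 0 lower, against 6.76%. In all 3 libraries 7 were higher, 1 was lower and 2 overlapped, and this count was not made over all genes. The median log2 fold change was 0.54 over the 10 genes and 0.03 over all genes. Since the members have higher counts than most genes, the 9634 genes averaging 10 CPM or more were also counted, and 27.3% were higher and 33.4% lower past the p limit, with 9.51% called higher and 9.86% lower. With transcript-length offsets, 4 members were higher and 1 lower past the p limit in ESCs. The called count was 5 without Neg ESC replicate 1, 3xKD ESC replicate 1, Neg EpiLC replicate 1 or 2, or 3xKD EpiLC replicate 3.

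For 3xKD against Neg EpiLCs, 5 genes were higher, *Cpt1a*, *Cpt1c*, *Acads*, *Acadl* and *Acadvl*, and *Hadhb* was lower past the p limit, beside 14.3% and 15.6% of all genes. Both limits called *Cpt1a*, *Acads* and *Acadl* higher and 0 lower, beside 7.88% and 5.35% of all genes. In all 3 libraries 8 were higher and 1 was lower, where 5 and 1 passed the p limit, again not counted over all genes. The median was 0.23, against 0.03 over all genes. Of the 9634 genes averaging 10 CPM or more, 25.1% were higher and 35.1% lower past the p limit, with 9.20% called higher and 8.90% lower. The p limit alone was sensitive here, since it gave 2 higher and 0 lower with transcript-length offsets, 8 higher and 0 lower with library size alone, and 4 higher without Neg EpiLC replicate 3.

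**Figure D3:**
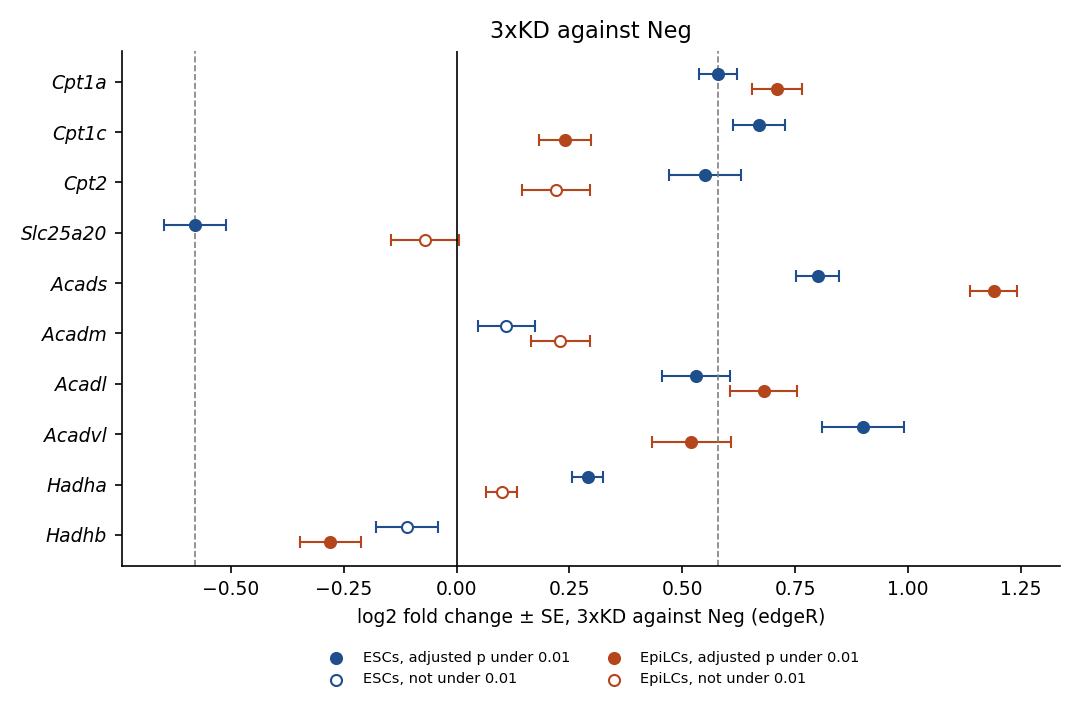
Log2 fold change with its SE (horizontal axis, edgeR) of 3xKD against Neg for each gene in ESCs (blue) and EpiLCs (orange), filled where the adjusted p was under 0.01, with dashed lines at the fold limit of 0.58. *Acads* is past both limits in both states at 0.80 and 1.19, and *Slc25a20* in ESCs at -0.58 and *Hadhb* in EpiLCs at -0.28 are the filled points below 0.

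Direction in both states was counted for the 10 genes only, so these counts cannot be set against a share of all genes. Of the 25446 genes tested, 13097 were above 0 in ESCs and 13165 in EpiLCs, each state taken alone. The log2 fold change was above 0 in both states for 8 of the 10, and 5 passed the p limit as higher in both. With transcript-length offsets that limit was passed as higher by *Cpt1a*, *Cpt1c*, *Acads* and *Acadvl* in ESCs. In EpiLCs *Cpt1a* and *Acads* alone passed it, so only these did in both states. The 3xKD effect itself differed between the states, past the adjusted p limit of 0.01, for 3 genes, beside 10% of all genes tested and 22.3% of the genes averaging 10 CPM or more. For *Cpt1c* the effect in EpiLCs minus that in ESCs was -0.43 (SE 0.081, adjusted p = 0.0012, edgeR), for *Slc25a20* it was 0.51 (SE 0.10, adjusted p = 0.0021, edgeR) and for *Acads* it was 0.40 (SE 0.071, adjusted p = 8.9e-04, edgeR). The *Cpt1c* effect was smaller in EpiLCs, the *Slc25a20* value was negative in ESCs and near 0 in EpiLCs, and the *Acads* effect was larger in EpiLCs. For *Cpt1a* the difference was 0.13 (95% interval from -0.004 to 0.27, adjusted p = 0.24, edgeR), which did not pass the limit.

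Those 3 differences depended on how transcripts were counted. With offsets for effective transcript length, *Slc25a20* was at 0.42 (adjusted p = 0.094, edgeR) and *Acads* at 0.30 (adjusted p = 0.44, edgeR). Leaving out transcripts with a retained intron or marked for nonsense-mediated decay, an alternative chosen after seeing the data, *Slc25a20* was at 0.31 (adjusted p = 0.16, edgeR) and *Cpt1c* at -0.31 (adjusted p = 0.019, edgeR). Over the 22 alternatives the adjusted p ran from 8.9e-05 to 0.16 for *Slc25a20*, from 1.8e-05 to 0.019 for *Cpt1c* and from 3.8e-04 to 0.44 for *Acads*.

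From ESCs to EpiLCs the set did not move as one. In Neg, 4 genes were lower, *Cpt1a*, *Slc25a20*, *Acads* and *Acadm*, and 3 were higher, *Cpt2*, *Acadvl* and *Hadhb*, past the p limit, beside 18.2% lower and 17.5% higher of all genes, and 32.7% and 30.6% of the genes averaging 10 CPM or more. With transcript-length offsets, *Cpt2* alone was higher, and *Cpt1a*, *Slc25a20* and *Acads* were lower, past the p limit. In the main fit both limits called 3 lower, beside 11.0% of all genes and 14.6% of those averaging 10 CPM or more. They called 0 higher, beside 9.78% and 10.9%. *Cpt1c*, *Acadl* and *Hadha* did not pass the p limit, with 95% intervals from -0.07 to 0.16, from -0.06 to 0.25 and from -0.11 to 0.03. The median over the 10 genes was 0.002, and over all genes 0.01.

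In 3xKD, 6 genes were lower and 1, *Acadl*, was higher past the p limit, beside 17.9% and 15.9% of all genes, and 33.8% and 26.5% of the genes averaging 10 CPM or more. *Acadl* lost that limit under DESeq2 and whenever a library was left out, except Neg EpiLC replicate 1 or 2 or 3xKD EpiLC replicate 3. With transcript-length offsets 5 genes were lower and 0 higher past it. Both limits called *Cpt1a* and *Slc25a20* lower, beside 9.32% of all genes and 12.2% of those averaging 10 CPM or more, and 0 higher, beside 9.42% and 9.93%. The comparisons of states and of lines share libraries, so their values are set side by side and not correlated.

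**Figure D4:**
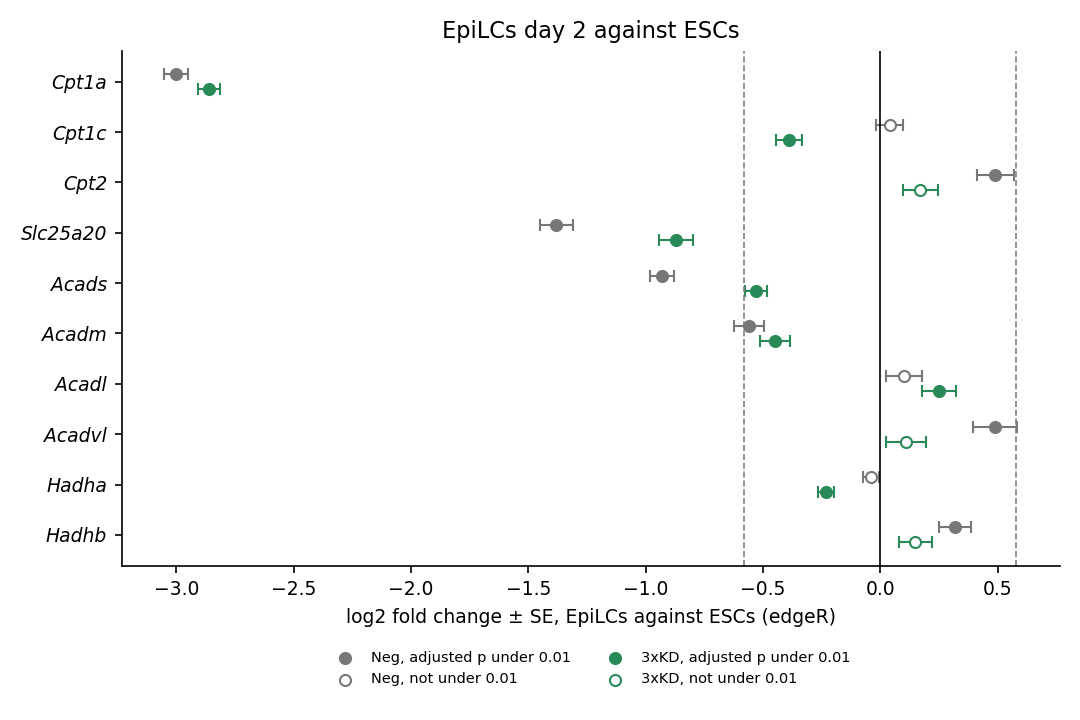
Log2 fold change with its SE (horizontal axis, edgeR) of EpiLCs day 2 against ESCs for each gene in Neg (grey) and 3xKD (green), filled where the adjusted p was under 0.01, with dashed lines at the fold limit of 0.58. *Cpt1a* lies at -3.00 and -2.86, away from the other 9 genes, which lie between -1.38 and 0.49.

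Summed over the 10 genes, the level was 520.6, 531.0 and 520.8 CPM in Neg ESCs and 680.0, 690.4 and 674.3 CPM in 3xKD ESCs. In EpiLCs it was 356.1, 350.8 and 351.1 CPM in Neg and 413.0, 415.7 and 401.8 CPM in 3xKD. The groups did not overlap in summed CPM. *Cpt1a* alone made up 161.5 of the Neg ESC mean of 524.2 CPM and 20.3 of the Neg EpiLC mean of 352.7 CPM. In summed TPM all groups overlapped. Those sums ran from 156.7 to 225.2 TPM in Neg ESCs and from 182.0 to 235.0 TPM in 3xKD ESCs. In EpiLCs they ran from 166.6 to 189.2 TPM in Neg and from 142.6 to 201.6 TPM in 3xKD. As the samples are bulk RNA, fewer cells with a transcript and less of it per cell cannot be told apart.

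By TPM, which allows genes to be ranked, *Hadha* led in Neg ESCs at 42.4 ± 14.1 TPM (SD, n = 3), followed by *Cpt1a* at 32.4 ± 7.59 and *Hadhb* at 31.6 ± 7.38 TPM. *Hadha* was above *Cpt1a* in all 3 libraries although their ranges overlapped, and *Cpt1a* was above *Hadhb* in 2 of 3. *Acadm* followed at 23.9 TPM, then *Slc25a20*, *Acads* and *Cpt1c* between 15.3 and 10.8 TPM, and *Cpt2*, *Acadl* and *Acadvl* came last at 5.46, 5.0 and 3.42 TPM. In Neg EpiLCs *Hadhb* at 51.4 ± 1.99 and *Hadha* at 50.6 ± 7.95 TPM overlapped at the top, and *Cpt1a* was last at 4.08 ± 0.769 TPM, overlapping with *Acadvl* above it. The noncoding *Rn7s1* took 15.2% to 29.7% of all TPM, and TPM were used for order, shares and the summed level alone.

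Markers of state moved with the 3xKD line in EpiLCs. The summed naive markers were at 406.4 to 425.7 CPM in Neg EpiLCs and at 513.2 to 530.8 CPM in 3xKD EpiLCs, with 5 of 10 called higher, and the formative markers at 4673.9 to 5131.5 and at 2735.7 to 2774.8 CPM, with 8 of 10 called lower. In ESCs the naive markers were at 5259.0 to 5413.5 CPM in Neg and at 4030.5 to 4110.2 CPM in 3xKD, with 5 of 10 called lower. Of all genes tested, 7.88% were called higher and 5.35% lower in EpiLCs, and 8.50% and 6.76% in ESCs. Genes of the set that were higher in 3xKD EpiLCs include *Cpt1a* and *Acads*, which are lower in EpiLCs than in ESCs, and also *Acadl*, which in Neg is not called between the states. The part of the state markers in these values was not tested.

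Markers of other cell types also moved with the 3xKD line. In EpiLCs the 8 trophectoderm markers summed to 40.1 to 42.2 CPM in Neg and to 69.8 to 70.8 CPM in 3xKD, with 4 called higher and 1 lower. The 8 markers of 2-cell-like cells summed there to 385.8 to 434.3 and to 833.9 to 917.9 CPM, with 4 called higher, and the 6 neuroectoderm markers to 138.3 to 143.3 and to 73.7 to 75.2 CPM, with 2 called lower. These 3 sums did not overlap between the lines. In ESCs the trophectoderm sum was 98.7 to 105.4 CPM in Neg and 112.3 to 129.3 CPM in 3xKD, with 2 called higher and 1 lower. The 2-cell-like sum there was 441.1 to 482.1 and 482.4 to 488.7 CPM, with 0 called higher and 2 lower. The neuroectoderm sum was 117.7 to 130.0 and 107.5 to 111.6 CPM, with 0 called higher and 1 lower. The 8 primitive endoderm markers summed to 26.6 to 30.0 CPM in Neg ESCs and 40.7 to 43.3 CPM in 3xKD ESCs, with 3 called higher, and overlapped between the EpiLC groups. The 6 mesoderm markers stayed at or under 8.21 CPM in every library, with 0 called in either state. The counts called here read against the same shares of all genes as for the state markers. The part of these markers in the values of the 10 genes was not tested. No marker gene was at 0 in all 3 libraries of any group.

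Around the 10 genes, 81 further genes of fatty acid handling were grouped into 9 lists, of which 80 could be tested. In ESCs the p limit was passed by 31 genes higher and 12 lower, with 15 called higher, 3 called lower and a median of 0.21. The EpiLC comparison had 31 higher and 4 lower past it, with 11 called higher, 2 called lower and a median of 0.25. These counts read against the same shares of all genes as above.

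Uptake and activation genes bring fatty acids to the mitochondrion. Of 11 tested, the p limit was passed by 6 higher and 1 lower in 3xKD ESCs, and by 4 higher and 1 lower in EpiLCs. *Acsl4*, an acyl-CoA synthetase with a preference for arachidonate, was at 56.4 CPM in Neg and 82.4 CPM in 3xKD ESCs (0.55, p limit alone), and fell in EpiLCs from 238.4 to 153.8 CPM, by 0.63. *Fabp3*, a fatty acid binding protein, rose in 3xKD EpiLCs by 1.49 and fell between ESCs and EpiLCs by 4.02 in Neg and by 2.91 in 3xKD.

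Among the 3 other carnitine acyltransferases, *Cpt1b*, the muscle-type CPT1, was called higher in both states. It was at 1.51, 1.93 and 2.60 CPM in Neg ESCs and at 4.79, 5.12 and 4.51 CPM in 3xKD ESCs, and in EpiLCs at 0.554, 0.873 and 1.33 CPM in Neg and at 4.84, 3.26 and 4.0 CPM in 3xKD. Its low levels did not overlap between the lines, and it rose by 1.22 (SE 0.24, adjusted p = 5.5e-04, edgeR) and by 2.13 (SE 0.27, adjusted p = 7.6e-06, edgeR). *Crat* and *Crot*, which act on short and medium chains, were called in neither state, and all 3 were called lower in Neg EpiLCs than in Neg ESCs, beside 11.0% of all genes.

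The 17 other matrix and electron transfer genes followed the acyl-CoA dehydrogenases in part. In each state 8 were higher and 1 lower past the p limit. Both limits called 5 in ESCs, *Echs1*, *Eci2*, *Decr1*, *Acot13* and *Etfb*, and 2 in EpiLCs, *Eci2* and *Acot13*. *Acot13*, an acyl-CoA thioesterase, rose by 1.32 in ESCs and by 0.83 in EpiLCs. Of the 4 branched-chain and other acyl-CoA dehydrogenases, which act on amino acid products, 0 were called in either state, and 1 was lower past the p limit in ESCs. The median of these 4 was -0.11 in ESCs and -0.03 in EpiLCs.

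The 3 genes of malonyl-CoA control, which include its makers and the enzyme that removes it, were higher past the p limit in both states. *Mlycd*, which breaks malonyl-CoA down, was at 52.9, 65.0 and 58.7 CPM in Neg ESCs and at 123.2, 127.5 and 129.3 CPM in 3xKD ESCs, and in EpiLCs at 68.7, 69.8 and 71.4 CPM in Neg and at 154.1, 161.3 and 149.5 CPM in 3xKD. The lines were far apart in both states, and *Mlycd* rose by 1.1 (SE 0.055, adjusted p = 1.6e-10, edgeR) and by 1.15 (SE 0.054, adjusted p = 8.9e-11, edgeR). *Acacb*, the acetyl-CoA carboxylase of the mitochondrial surface, which makes malonyl-CoA, rose in ESCs by 0.97 (SE 0.072) and was at 0.44 in EpiLCs (p limit alone), and *Acaca*, its cytosolic counterpart, was at 0.29 and 0.24.

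Of the 14 transcriptional regulators, the p limit was passed by 3 higher and 4 lower in ESCs, and by 3 higher and 2 lower in EpiLCs. Of the genes averaging 10 CPM or more, 27.3% were higher and 33.4% lower past it in ESCs, and 25.1% and 35.1% in EpiLCs. *Ppargc1b*, a coactivator of mitochondrial genes, was called higher in both states and reached 1.02 in EpiLCs. *Pprc1*, called in neither state, was lower in every 3xKD library. Its means were 280.7 CPM in Neg and 206.9 CPM in 3xKD ESCs, and 400.2 and 300.7 CPM in EpiLCs. *Lpin1*, which coactivates PPARA, rose in ESCs by 1.14, and *Ncor1*, a corepressor, fell in both states by 0.59 and by 0.63. *Rxra*, the PPAR partner, fell in ESCs by 0.58. *Ppara* itself was at or under 0.413 CPM in every group mean. *Esrrb*, a naive pluripotency factor, fell between ESCs and EpiLCs by 4.15 in Neg and by 2.92 in 3xKD.

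Among the 6 PPAR targets outside oxidation, *Pdk4*, the kinase that switches off pyruvate dehydrogenase, had the highest called value of the wider lists in ESCs. It was at 6.20, 6.13 and 6.42 CPM in Neg ESCs and at 18.0, 19.9 and 21.2 CPM in 3xKD ESCs, and in EpiLCs at 2.59, 3.15 and 3.79 CPM in Neg and at 10.7, 10.1 and 10.9 CPM in 3xKD. All 3xKD libraries stood above all Neg libraries, and *Pdk4* rose by 1.65 (SE 0.11, adjusted p = 3.5e-09, edgeR) and by 1.73 (SE 0.12, adjusted p = 9.1e-09, edgeR). In that list 4 were higher past the p limit in each state and 1 was lower in ESCs.

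The 13 genes of peroxisomal oxidation, which shortens very long chains outside mitochondria, had a median of -0.03 in ESCs and 0.20 in EpiLCs. Both limits called *Acox3* alone, which fell in 3xKD ESCs by 0.75. Between Neg ESCs and Neg EpiLCs 10 of the 13 were lower past the p limit, 9 of them called, beside 18.2% and 11.0% of all genes, and *Acox3* fell by 2.53. Of the 9 propionyl-CoA and ketone body enzymes, 3 were higher and 1 lower past the p limit in ESCs, 3 were higher in EpiLCs, and *Bdh1* was the 1 called, at 0.65 in EpiLCs. *Bdh1* lies on chromosome 16, where the median over 454 genes was 0.30 in the same comparison, and the part of that shift in its value was not tested. *Bdh1* fell between the states by 2.10 in Neg and by 1.59 in 3xKD.

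**Figure D5:**
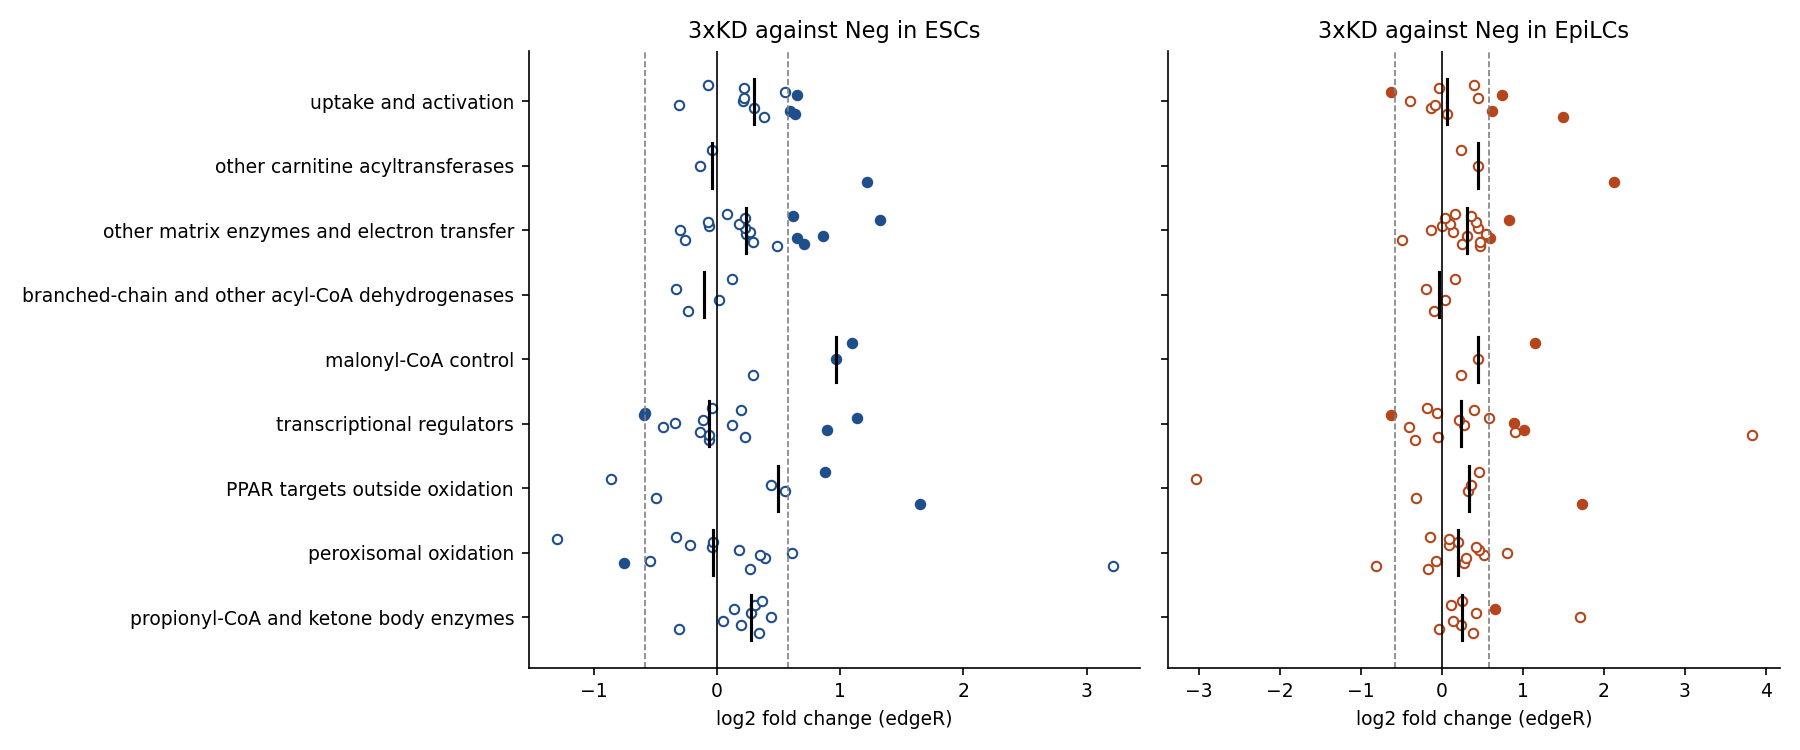
Log2 fold change of 3xKD against Neg (horizontal axes, edgeR) in ESCs (left) and EpiLCs (right) for each tested gene of the 9 wider lists, filled where both limits were passed, with a black bar at the median of each list and dashed lines at the fold limit of 0.58. The medians lie between -0.11 and 0.97 in ESCs and between -0.03 and 0.45 in EpiLCs.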

How the data were processed

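RNA-seq of 12 libraries was analysed. Per the labels, RNA was depleted of ribosomal RNA and made into directional libraries, though the molecule field names polyA RNA. The authors trimmed reads with Trim Galore 0.6.7, mapped them to GRCm39 with STAR 2.7.9a and quantified 149132 transcripts per library with Salmon 1.10.1. Per transcript, the deposited tables give estimated counts without normalization. They also give TPM, which the authors' quantifier scaled for length and library total.

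Here the counts of each gene's transcripts were added and rounded to whole numbers. Genes reaching 10 counts over the 12 libraries entered one quasi-likelihood fit of the 4 groups in edgeR 4.0.16 (R 4.3.3) with TMM factors. A call required an adjusted p (Benjamini-Hochberg) below 0.01. It also required a log2 fold change beyond 0.58 in either direction, save for the difference between states. The SE is the log2 fold change over the square root of F. This differs from the study's DESeq2 on tximport counts, and transcript-length offsets were an alternative. Tested on simulated data with 200 genes changed by 1 on the log2 scale, the fit recovered 96.5% of them for 3xKD against Neg ESCs (24799 genes), 95% in EpiLCs (24820 genes), 96% between the states in Neg (24827 genes), 95.5% in 3xKD (24774 genes) and 87% for the difference of effects (24808 genes), with at most 6 calls on unchanged genes. The changed genes were drawn above a floor of mean level, and all other genes were simulated with equal means in the 4 groups. Smaller changes were not simulated, so these rates do not cover changes near the limit of 0.58. Other alternatives were DESeq2 1.42.0, other scalings and filters, a replicate block, only the groups compared, an adjusted p under 0.05 and each library left out. TPM were summed per gene. Start sites, exons and transcript types came from GENCODE vM39, which matched 99.0% of genes.

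The members and the gene lists were chosen with earlier results of these data known. Named were all members, the repressed genes and at most 5 called genes per direction and comparison of the wider lists, by size, with a mean of at least 1 CPM. *Acaca*, *Crat*, *Crot*, *Decr1*, *Echs1*, *Eci2*, *Etfb*, *Ppara* and *Pprc1* were named after their values were seen. No pair of libraries in a group was a duplicate, with chi-square values per degree of freedom from 2.99 to 18.4. The labels give no batch. A further gene of the wider lists is not reported here.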

Additional observations from a re-analysis of the deposited data

Results flagged for a closer look

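The 3xKD effect differed between the states, by edgeR's test of the difference, for 3 of the 10 fatty acid oxidation genes. The same test was passed by 10% of all genes tested and by 22.3% of those averaging 10 CPM or more. *Cpt1c* was at -0.43, *Slc25a20* at 0.51 and *Acads* at 0.40, each as the log2 effect in EpiLCs minus that in ESCs. With transcript-length offsets *Cpt1c* alone passed. Among the wider lists the effect was more positive in EpiLCs for *Esrrb* (1.23), *Fabp3* (1.12), *Acox3* (1.02), *Crat* (0.59), *Rxra* (0.52) and *Bdh1* (0.51). It was lower in EpiLCs for *Acsl4* (-1.18), *Fabp5* (-0.57), *Lpin1* (-0.56), *Acacb* (-0.54) and *Echs1* (-0.46). *Acsl4* was higher in 3xKD ESCs and lower in 3xKD EpiLCs than in the Neg libraries, and *Esrrb* the reverse, in all 3 libraries of each group.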

How the results depend on the processing

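Of 1140 log2 fold changes of the 10 genes under the alternatives, 1067 kept their direction and call, 60 were newly called, 5 were no longer called and 8 turned in sign. All 138 of the repressed genes held. The 60 include calls that only the looser limits of the next sentence made, on values of the main fit. An adjusted p under 0.05 with no fold limit called 10142 genes in ESCs, 9694 in EpiLCs, 11231 between the states in Neg and 10838 in 3xKD, and 4127 for the difference of effects, with 8, 9, 7, 7 and 5 of the 10 among them. Transcript-length offsets gave 727 genes and 1 of the 10 for that difference. Without retained-intron and nonsense-mediated decay transcripts, 5 of the 10 were called in ESCs and 5 between the states in Neg. Leaving out 1 library gave 3 to 5 called in ESCs. Signs turned for *Slc25a20* in EpiLCs (-0.15 to 0.004 over libraries left out), for *Cpt1c* between the states in Neg without those transcripts (-0.04), for *Hadha* there with upper-quartile factors (0.04), transcript-length offsets (0.06) and over libraries left out (-0.06 to 0.02), and, with the offsets, for *Acadvl* between the states in 3xKD (-0.10) and in the difference of effects for *Acadm* (-0.13) and *Acadl* (-0.01). None of these values was called, and the cause was not tested. The replicate block gave 3792 called genes in ESCs against 3885, and as many of the 10. Same-numbered libraries shared only a number (correlations of deviations from -0.135 to 0.0999 over 18 pairs, with 3 best matched to their own number). With 3 libraries a group, differences near the limits could not be settled, and the lowest member count in a library was 98, for *Acadvl*.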
